A study of Mus musculus with 8 samples.

Results

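The mouse genes named Zfp600 to Zfp999 were examined, taken as every row of the count table whose symbol is Zfp followed by a 3-digit number from 600 upward. They were 139 of 23420 gene rows, and 121 of them had enough counts to be tested. RNA came from C2C12, an established line of mouse myoblasts, the muscle precursors that form myotubes in low serum. All cells were grown in DMEM with 10% fetal bovine serum and then held for 48 h in DMEM with 2% horse serum. Cells labelled WT were set beside cells labelled as overexpressing AUF1, the protein of the Hnrnpd gene, an RNA-binding protein that recognises AU-rich elements, mostly in the 3' ends of mRNAs. From each genotype, total RNA (Total) and a second RNA titled High, read here as RNA on heavy polysomes, were sequenced. The 4 groups, WT Total, AUF1 Total, WT High and AUF1 High, had 2 libraries each. The labels do not state a vector control for WT cells, the clonality of AUF1 cells, or separate cultures for the libraries of a group. The p-values therefore cover only library-to-library spread, perhaps technical, and AUF1 and the line that carries it cannot be told apart.

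A C2H2 zinc finger is a short fold in which a zinc ion is held by a pair of cysteines and a pair of histidines, and arrays of such fingers bind DNA. Many members also carry a KRAB domain, which recruits the scaffold protein TRIM28 (KAP1) and, through it, the histone methyltransferase SETDB1 and HP1 proteins. KRAB zinc finger proteins are known for silencing transposable elements, lie in chromosomal clusters made by repeated gene duplication, and are in general expressed at low levels. Other members lack KRAB, and some of those act outside transcription, as in ribosome assembly.

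Members were sorted by a KRAB A-box pattern in the first 200 residues encoded by their longest complete coding sequence in GENCODE M21 (mouse build mm10). Of 134 members with such a sequence, 79 held the pattern and 55 did not. A missing pattern says only that it was not found there, and it does not show that a protein lacks the domain. The median number of C2H2 finger patterns was 10.5 per member (range 0 to 33), with 12 in the KRAB class and 7 in the class without the pattern. By position, 68 members lay in 13 chains of at least 3 neighbours less than 500 kb apart. The longest chain ran from Zfp677 to Zfp945 on chromosome 17 (21383748 to 22867134) and held 11 members. A chain of 9 on chromosome 7 (127244274 to 127885996) included Zfp689 and Zfp629.

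As an illustration of the finger pattern, the coding sequence of 1 finger and the bases after it is given for 4 members described below. Each stretch has 84 bases from mm10, with the codons of the paired cysteines and histidines in capitals. Zfp951 (chr5:104815084-104815167, minus strand) and Zfp948 (chr17:21587193-21587276, plus strand) are in the KRAB class, and Zfp651 (chr9:121766493-121766576, plus strand) and Zfp697 (chr3:98427530-98427613, plus strand) are not.
Zfp951: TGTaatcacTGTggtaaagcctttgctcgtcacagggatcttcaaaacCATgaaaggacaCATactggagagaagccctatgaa
Zfp948: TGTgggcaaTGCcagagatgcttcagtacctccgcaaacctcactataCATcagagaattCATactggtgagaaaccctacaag
Zfp651: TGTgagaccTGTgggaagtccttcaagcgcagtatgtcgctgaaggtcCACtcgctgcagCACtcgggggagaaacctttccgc
Zfp697: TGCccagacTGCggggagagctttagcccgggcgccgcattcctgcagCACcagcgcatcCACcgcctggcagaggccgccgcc
Each stretch was chosen by the same fixed spacing of these codons, so the capitals fall at the same places in the 4 sequences by choice.

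Because AUF1 binds AU-rich elements, the pentamer ATTTA and the heptamer TATTTAT, which contains it, were counted on the transcribed strand of annotated 3' untranslated regions. ATTTA was present in 76.3% of 131 members and in 62.7% of 18493 other genes. The members' 3' regions were also longer, with a median of 1191 against 833 bases. Per kb of 3' region, the median number of ATTTA was 1.59 in members and 1.16 in other genes. TATTTAT was present in 26.7% of members and 26.2% of other genes. Windows of 30 bases around a match, with the motif in capitals, are shown for 5 members whose genotype differences are given below.
Zfp667 (chr7:6307113-6307142, plus strand): taaatcctctaTATTTATataagtaaacag
Zfp697 (chr3:98431470-98431499, plus strand): ggcacttgtacTATTTATttcctgggaaat
Zfp677 (chr17:21398626-21398655, plus strand): ctaccattcgtcATTTAgaaggcatcagaa
Zfp937 (chr2:150239617-150239646, plus strand): ctctgtgaatatATTTAatatggtgaagcc
Zfp964 (chr8:69665331-69665360, plus strand): aactataacaggATTTAatcttaaaaggca
Zfp605, Zfp691, Zfp692, Zfp750 and Zfp951 had no ATTTA in their annotated 3' region. A match describes these letters and is not evidence of binding.

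The libraries held 25281224 to 34917660 counts assigned to genes. Hnrnpd measured 64.2 and 99.6 CPM (counts put on a common library total after scaling by the trimmed mean of M-values) in WT Total (replicates 1 and 2), 448 and 397 in AUF1 Total, 106 and 131 in WT High and 549 and 427 in AUF1 High. The summed level of 8 muscle marker genes was 3192 to 4688 CPM in WT libraries and 15100 to 22919 in AUF1 libraries. Acta1, a sarcomeric actin, supplied most of the AUF1 sums, at 12324 and 9984 CPM in AUF1 Total and 9018 and 10907 in AUF1 High. Not all 8 were higher, as Myf5 measured 20.7 and 46.2 CPM in WT Total and 13.2 and 25.7 in AUF1 Total, Myod1 overlapped (197 and 273 against 338 and 266), and so did Cdh15 (434 and 94.8 against 1321 and 116). That of 5 fibroblast markers was 1138, 219, 1389 and 242 CPM in WT Total 1 and 2 and WT High 1 and 2, and 475, 90.5, 227 and 97.7 in the matching AUF1 libraries. Lum, 1 of the 5, was at 0 in 6 libraries and reached 3.21 CPM in WT High 1. Summed adipocyte, immune and endothelial markers stayed at or below 1.16 CPM, with Plin1 at 0 in all 8. In bulk RNA, fewer cells of a type and less RNA per cell cannot be told apart.

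The 139 members supplied 0.218% to 0.430% of each library's counts. Their summed level was 3104 and 3612 CPM in WT Total, 2661 and 3023 in AUF1 Total, 3511 and 3871 in WT High and 3008 and 3155 in AUF1 High. In each fraction both WT libraries lay above both AUF1 libraries. Counts were uneven across the family. Zfp706, Zfp664, Zfp622, Zfp740 and Zfp651 held 28.4% of all member counts, 70 members averaged 10 CPM or more, and 25 averaged under 1 CPM. Zfp616, Zfp648, Zfp735 and Zfp831 had no count in any library. Zfp711, Zfp618, Zfp872 and Zfp612 had 28, 11, 6 and 6 counts in WT High 1 and at most 1 count in the other libraries together, and were not tested.

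Per kilobase of exon, the class without the KRAB pattern was the more abundant, with a median of 4.21 CPM per kb against 1.80 in the KRAB class. The highest member was Zfp706 at 40.4 CPM per kb, a very small protein with 1 finger pattern, followed by Zfp740 (34.5), Zfp637 (31.0), Zfp703 (27.0) and Zfp622 (26.4). Zfp622 is a ribosome assembly factor that acts on the large subunit. Among the low members described below, Zfp677 and Zfp951 were at 0.385 and 0.382 CPM per kb, and Zfp750 at 0.197. These were not the lowest of the family, as each class had a lowest value of 0. The sequences of some members are nearly copies of other genes, so that reads could be split between them. More than 20% of 50-base windows were shared with another gene in 16 of 136 members with a transcript. Among the members named below these were Zfp960 (82.7%, mostly with Zfp97), Zfp963 (39.4%, Gm20422), Zfp932 (37.0%, Gm15446) and Zfp937 (29.4%, Zfp442), and their counts are uncertain to that extent.

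One library stood apart for these genes before any comparison. Set against each member's own mean over the 8 libraries, the members' median level in AUF1 Total 1 was -0.84 on the log2 scale, while all genes tested had a median of 0.12 there. The KRAB class lay at -1.20 and the class without the pattern at -0.07. In numbers of genes, 75 of the 121 tested members had their lowest level in AUF1 Total 1, made up of 60 of 69 in the KRAB class, 13 of 48 in the other class and 2 with no coding sequence found. Of all genes tested, 23.2% were lowest there. WT Total 1 was the next lowest for the KRAB class (-0.11), and the other 6 libraries lay between 0.08 and 0.39.

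**Figure D1:**
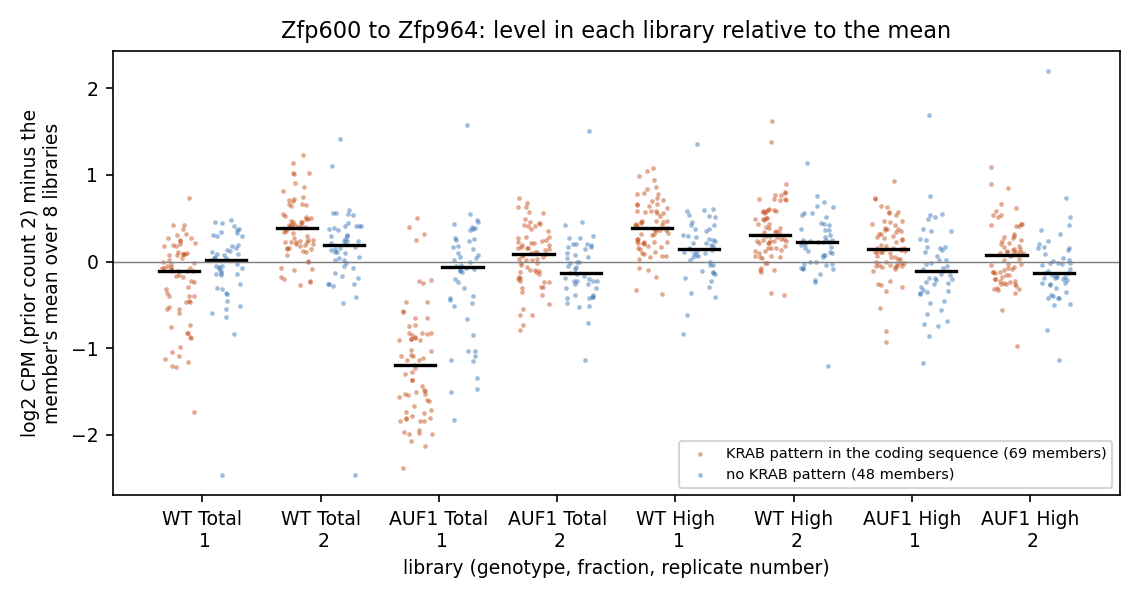
Level of each tested member in each of the 8 libraries, as log2 CPM minus that member's mean over the libraries, with the 69 members of the KRAB class in orange, the 48 without the pattern in blue and black bars at the medians. The KRAB class lies at a median of -1.20 in AUF1 Total 1 and within 0.39 of its mean in the other 7 libraries, while the class without the pattern stays within 0.22 in all 8.

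Other numbered Zfp genes, outside the range studied here, lay at -0.57 in AUF1 Total 1. Several measures of the whole library were also outermost in AUF1 Total 1. Among genes outside the family, split into 3 equal classes by 3' region length, the shortest, middle and longest class lay at 0.31, 0.16 and -0.14 in AUF1 Total 1. Its 10 most abundant genes took 7.08% of counts, the highest of the 8 libraries, and its scaling factor of 0.818 was the lowest. The share of the 10 genes was almost as high in AUF1 Total 2, at 6.90%, where the members' median was 0.02. The part of these library measures in the members' low levels in AUF1 Total 1 was not tested. The medians of the family and its classes, and the values of some members, are therefore also given within replicate number 1 and within number 2, as the log2 difference of scaled CPM with a prior count of 2.

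In total RNA, most members were lower in AUF1 cells than in WT cells, and a single member passed the test. Zfp750 rose (edgeR's quasi-likelihood test, Benjamini-Hochberg adjusted p = 0.0425), against 1.02% of all 13167 genes called in either direction and 0.820% called higher. The median log2 fold change over the 121 tested members was -0.42, with 101 below 0, while over all genes it was 0.00. Genes of like abundance, those in the middle range of the members' mean CPM, had a median of -0.12. The 179 tested Zfp genes numbered outside the range had a median of -0.37, so the shift was not particular to the members. Within number 1 the members' median was -0.72 and within number 2 it was -0.31. By class, the KRAB members had a median of -0.54 (-0.92 and -0.31 within numbers 1 and 2) and those without the pattern -0.28 (-0.20 and -0.28). The members' median was -0.23 without AUF1 Total 1 (all genes -0.10), -0.97 without AUF1 Total 2 (all genes 0.04), -0.17 without WT Total 2 (all genes 0.04) and -0.70 without WT Total 1 (all genes -0.0082). The KRAB median was -0.15, -1.33, -0.20 and -0.85 without the same libraries in turn.

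Single members seldom stood out from the replicate spread in total RNA. The levels of the AUF1 and WT libraries did not overlap for 39 members with AUF1 lower (32.2%, against 17.8% of all genes) and for 7 with AUF1 higher (5.79%, against 22.5%). Of the other numbered Zfp genes, 38.0% were lower and 10.6% higher in this way. At an unadjusted p under 0.05, 7 members were past the threshold, 1 higher and 6 lower, or 5.79% against 13.7% of all genes. DESeq2 called 4 members, Zfp750 higher and Zfp629, Zfp862 and Zfp964 lower, where it called 6.72% of all genes. With a term for the replicate number, which the main fit lacks, edgeR called the same 4, against 13.1% of all genes.

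Zfp750, a regulator of epidermal differentiation, was near the limit of detection. It had 0 counts in both WT Total libraries and 30 and 27 in AUF1 Total, or 1.05 and 1.00 CPM. Against a floor of 3 counts per WT library, it was at least 9.04-fold higher with AUF1. In the High libraries it had 5 and 3 counts in WT and 37 and 45 in AUF1, a log2 fold change of 3.51 ± 0.58 (SE, n = 2 per group, edgeR adjusted p = 0.0837, DESeq2 adjusted p = 0.000694). The gene (chr11:121510978-121519333, minus strand) lies whole within Tbcd, which runs on the opposite strand and encodes a tubulin folding cofactor. Tbcd itself measured 116 and 104 CPM in WT Total and 260 and 176 in AUF1 Total, a log2 fold change of 0.99 ± 0.28 (SE, edgeR adjusted p = 0.18). The strand setting of the counting is unknown here, so reads of the pair cannot be told apart. Leaving out any 1 of the 8 libraries, or scaling by RLE (relative log expression) or plain library totals, ended the edgeR call.

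Zfp862 showed the largest genotype difference among members averaging 10 CPM or more. Its level was 185 and 174 CPM in WT Total and 76.5 and 60.0 in AUF1 Total, and 141 and 184 in WT High against 54.6 and 60.3 in AUF1 High. Every AUF1 library lay below every WT library in both fractions. The log2 fold change was -1.39 ± 0.27 in total RNA (SE, edgeR adjusted p = 0.0828, within numbers -1.27 and -1.54) and -1.50 ± 0.27 on polysomes (adjusted p = 0.0778, within numbers -1.36 and -1.61). DESeq2 called it in both, with adjusted p = 0.000142 and 6.41e-05. RefSeq lists this symbol as a synonym of Zfp862-ps, a transcribed pseudogene at 48504339 to 48534832 on chromosome 6, and no coding sequence was matched to it.

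The other members with the largest non-overlapping differences in total RNA were low. Zfp964, of the KRAB class, measured 3.77 and 3.20 CPM in WT Total and 0.981 and 1.44 in AUF1 Total, a log2 fold change of -1.52 ± 0.44 (SE, edgeR adjusted p = 0.193, DESeq2 adjusted p = 0.0279). Zfp951, also of the KRAB class, measured 1.78 and 2.21 CPM in WT Total and 0.666 and 0.926 in AUF1 Total, with -1.32 ± 0.45 (edgeR adjusted p = 0.257). Both were lower with AUF1 within each number, by -1.87 and -1.11 for Zfp964 and by -1.33 and -1.20 for Zfp951. Among members that were higher with AUF1 and did not overlap, Zfp692 had a log2 fold change of 0.52 ± 0.31, Zfp697 of 0.51 ± 0.27 and Zfp691 of 0.46 ± 0.29, all with an edgeR adjusted p of at least 0.496.

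On heavy polysomes the members were again lower with AUF1, and here the replicate numbers gave like values. The median log2 fold change was -0.28 with 96 of 121 below 0, and within numbers 1 and 2 it was -0.27 and -0.33. All genes had a median of 0.00 and those of like abundance -0.06, while the other numbered Zfp genes had -0.29, much like the members. The KRAB class had a median of -0.26 and the class without the pattern -0.33. The AUF1 High libraries lay below both WT High libraries for 58 members (47.9%, against 21.3% of all genes) and above both for 10 (8.26%, against 23.6%). For the other numbered Zfp genes these shares were 46.9% and 13.4%. The edgeR test called 0 of 121 members, where it called 0.349% of all genes. At an unadjusted p under 0.05 it had 2 members higher and 9 lower, or 9.09% against 14.1% of all genes. DESeq2 called 5 (Zfp750 higher, and Zfp629, Zfp710, Zfp775 and Zfp862 lower), against 6.50% of all genes.

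**Figure D2:**
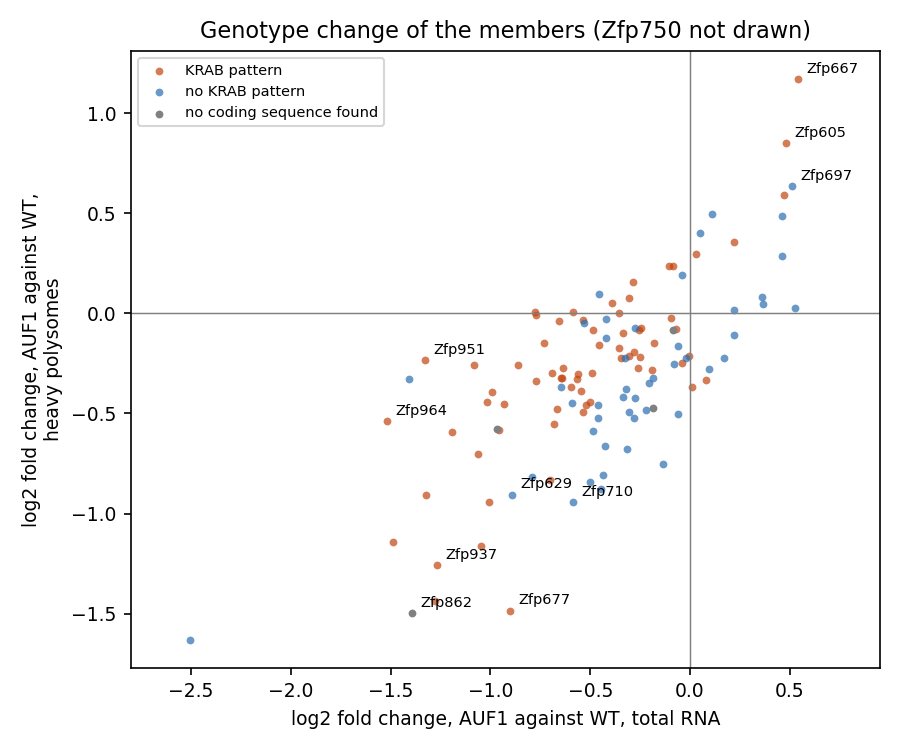
Log2 fold change of AUF1 against WT in total RNA (horizontal) and on heavy polysomes (vertical) for the tested members, coloured by class, with Zfp750 left out because it lies beyond the axes. Most points lie below 0 on both axes, Zfp862 at -1.39 and -1.50, and Zfp667, Zfp605 and Zfp697 form the upper right corner.

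Of the members called by DESeq2, 3 were measured at moderate levels with small spread. Zfp629 and Zfp710 were chosen after their values were seen. Zfp629 (19 finger patterns) measured 33.1 and 39.6 CPM in WT Total, 19.8 and 19.3 in AUF1 Total, 38.7 and 36.1 in WT High and 19.7 and 20.2 in AUF1 High. Its log2 fold changes were -0.89 ± 0.25 and -0.91 ± 0.25 (SE, edgeR adjusted p = 0.18 and 0.181), so that the 4 AUF1 libraries formed one narrow group below the 4 WT libraries. Zfp710 measured 28.2 and 33.0 CPM in WT Total, 21.5 and 19.3 in AUF1 Total, 33.9 and 37.4 in WT High and 18.1 and 18.9 in AUF1 High. Its differences were -0.58 ± 0.25 in total RNA and -0.94 ± 0.25 on polysomes (edgeR adjusted p = 0.386 and 0.172). Zfp775 measured 20.4 and 19 CPM in WT Total against 14.9 and 14 in AUF1 Total, and 19.9 and 17.8 in WT High against 9.14 and 11.4 in AUF1 High. Its polysome difference was -0.88 ± 0.27 (edgeR adjusted p = 0.22). All 3 are outside the KRAB class, and in each the genotypes did not overlap in either fraction.

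**Figure D3:**
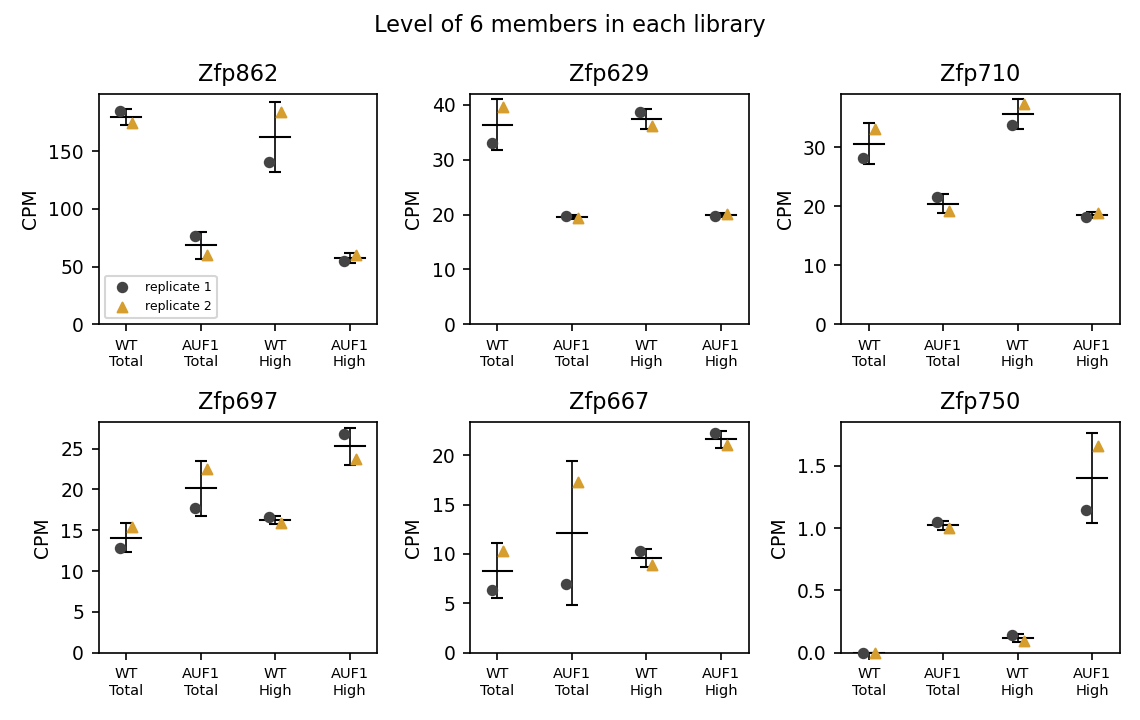
CPM of 6 members in each library, with circles for replicate 1, triangles for replicate 2, horizontal bars for the mean and error bars for the SD of the 2 libraries in each group. Zfp862, Zfp629 and Zfp710 are lower in all 4 AUF1 libraries, Zfp697 is higher in all 4 than in the WT libraries of the same fraction, Zfp667 overlaps in total RNA only, and Zfp750 stays below 1.7 CPM.

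A few members were higher on polysomes with AUF1. Zfp697, which has been linked to skeletal muscle regeneration, measured 12.9 and 15.3 CPM in WT Total, 17.7 and 22.5 in AUF1 Total, 16.6 and 15.9 in WT High and 26.9 and 23.7 in AUF1 High. Its polysome log2 fold change was 0.64 ± 0.27 (SE, edgeR adjusted p = 0.375), with 0.69 and 0.58 within numbers. The annotated gene spans several Hsd3b genes on the opposite strand, which counting without strand could not separate where exons overlap. Zfp667, of the KRAB class, measured 10.3 and 8.92 CPM in WT High and 22.2 and 21.0 in AUF1 High, a difference of 1.17 ± 0.48 (edgeR adjusted p = 0.35, within numbers 1.11 and 1.23). In total RNA the Zfp667 groups overlapped, at 6.36 and 10.3 CPM in WT and 6.97 and 17.3 in AUF1. Zfp605 measured 15.8 and 15.8 CPM in WT High and 24.9 and 32.2 in AUF1 High, with 0.85 ± 0.69 (edgeR adjusted p = 0.706).

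The lowest non-overlapping values on polysomes besides Zfp862 belonged to sparsely counted KRAB members. Zfp677 measured 1.59 and 2.32 CPM in WT High and 0.653 and 0.737 in AUF1 High, a log2 fold change of -1.49 ± 1.09 (SE, edgeR adjusted p = 0.662). Zfp937 measured 5.40 and 4.86 CPM in WT High and 2.11 and 2.18 in AUF1 High, a change of -1.26 ± 0.73 (edgeR adjusted p = 0.538). The SE of both is set by a spread shared with the Total groups, where their replicates differed most: Zfp937 ran from 1.98 to 5.23 CPM in WT Total and Zfp677 from 0.324 to 2.07.

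The other members named for a known role did not pass the edgeR test in either genotype comparison. Zfp637, studied as a regulator of myoblast proliferation, measured 105 and 78.9 CPM in WT Total, 71.3 and 58.4 in AUF1 Total, 89.1 and 119 in WT High and 47.4 and 68.3 in AUF1 High. Its log2 fold change was -0.50 ± 0.32 in total RNA and -0.84 ± 0.32 on polysomes (SE, edgeR adjusted p = 0.578 and 0.306), with no overlap in either. Zfp746 (PARIS), a repressor of the mitochondrial coactivator gene Ppargc1a, measured 52.2 and 64.5 CPM in WT Total, 45.1 and 39.8 in AUF1 Total, 56.3 and 53.1 in WT High and 40.0 and 36.2 in AUF1 High. It too did not overlap, at -0.46 ± 0.25 and -0.52 ± 0.25 (edgeR adjusted p = 0.504 and 0.425). Zfp651, a BTB-domain member also called Zbtb47, differed by -0.32 ± 0.28 in total RNA and by -0.68 ± 0.28 on polysomes, from 177 and 204 CPM in WT High to 100 and 139 in AUF1 High (edgeR adjusted p = 0.346).

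Zfp706 and Zfp664 had the most counts and differed in opposite directions. Zfp706, known from the exit of embryonic stem cells from self-renewal, measured 132 and 160 CPM in WT Total and 178 and 224 in AUF1 Total, with a log2 fold change of 0.46 ± 0.35 (SE, edgeR adjusted p = 0.663). On polysomes its groups overlapped, with 0.49 ± 0.35. Zfp664 differed by -0.46 ± 0.35 in total RNA and by -0.46 ± 0.35 on polysomes (adjusted p = 0.666 and 0.686). With 1 library left out, Zfp706 ran from 0.23 to 0.60 in total RNA and from 0.11 (without AUF1 High 2) to 0.88 (without WT High 2) on polysomes. Zfp664 ran from -0.83 (without WT Total 1) to -0.13 (without WT Total 2) in total RNA and from -0.68 (without WT High 1) to -0.19 (without WT High 2) on polysomes. Zfp740 differed by -0.27 ± 0.25 and -0.42 ± 0.25, and Zfp622 by 0.22 ± 0.23 and 0.01 ± 0.23. Of the 5 members with the most counts, Zfp706 and Zfp622 were higher and Zfp651 and Zfp740 lower without overlap in total RNA. Among all genes, 22.5% were higher and 17.8% lower in this way.

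Zfp609, which has been linked to myoblast proliferation, differed by -0.06 ± 0.25 and -0.16 ± 0.25 in total RNA and on polysomes (log2, SE). Zfp703, a co-repressor studied in breast epithelium, measured 131 and 67.5 CPM in the 2 AUF1 Total libraries, which lay on both sides of the WT values of 72.4 and 81.5. Zfp655 measured 58.3 and 67.8 CPM in WT Total and 26.2 and 54.2 in AUF1 Total, a difference of -0.65 ± 0.38 (edgeR adjusted p = 0.547). Among KRAB members known for silencing retroviral sequences, Zfp809 differed by -0.57 ± 0.51 and -0.33 ± 0.51 and Zfp932 by -0.77 ± 0.75 and -0.01 ± 0.74. Zfp809 stood at 5.92 CPM in AUF1 Total 1 and between 13.2 and 22.4 in the other 7 libraries. Zfp689, also of the KRAB class, differed by 0.08 ± 0.29 and -0.33 ± 0.29.

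The partners of KRAB proteins did not share the members' downward median. Of 34 listed co-repressor genes, including Trim28 and Setdb1, 31 were tested, and their median log2 fold change was 0.02 in total RNA and -0.01 on polysomes. The edgeR test called 0 in each, where it called 1.02% and 0.349% of all genes. At an unadjusted p under 0.05, 2 were higher and 1 lower in each (9.68%, against 13.7% and 14.1% of all genes). DESeq2 called 0 in total RNA and 1 on polysomes (Dnmt3b), against 6.72% and 6.50% of all genes. Past the unadjusted threshold in total RNA were Suv39h1, a histone methyltransferase (0.96 ± 0.28), Mbd1, a methyl-CpG binding protein (0.75 ± 0.24), and Dnmt3b, a DNA methyltransferase (-1.05 ± 0.39, edgeR adjusted p = 0.315).

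Between heavy polysomes and total RNA of the same genotype, no member passed the test. In WT cells the median log2 difference of High minus Total was 0.21 over the members, against 0.02 over all genes, and 90 of 121 lay above 0. Within number 1 it was 0.36 and within number 2 it was 0.01. The median was 0.03 without WT Total 1, below the 0.11 of all genes in that fit, 0.36 without WT Total 2 (all genes 0.0067) and 0.13 without WT High 1 (all genes -0.053). Neither edgeR nor DESeq2 called a member, where edgeR called 0.00% and DESeq2 0.228% of all genes. Only 1 member (Zfp750, with no count in WT Total) had an unadjusted edgeR p under 0.05, as did 2.76% of all genes. The High libraries lay above both Total libraries for 38 members (31.4%, against 13.0% of all genes) and below both for 6 (4.96%, against 14.9%). The other numbered Zfp genes were alike, with a median of 0.20, 31.3% above and 6.15% below.

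In AUF1 cells the corresponding median was 0.35, against -0.02 over all genes, and the classes differed. The KRAB members had a median of 0.51 with 65 of 69 above 0, and the members without the pattern -0.03 with 22 of 48 above 0. The replicate numbers gave different pictures. Within number 1 the KRAB median was 1.39 with 47 members more than 2-fold higher in High, and within number 2 it was 0.06 with 0 members past 2-fold. Leaving out AUF1 Total 1 brought the median of all members from 0.35 to 0.05, where all genes had 0.07, and leaving out AUF1 Total 2 brought it to 0.90, where all genes had -0.10. The value near 0 of the class without the pattern changed sign under other scalings, to 0.01 with RLE and 0.10 with plain library totals. High lay above both Total libraries for 31 members (25.6%, against 8.86% of all genes) and below both for 7 (5.79%, against 13.4%). Among the other numbered Zfp genes the median was 0.26, with 25.7% above and 4.47% below. Neither edgeR nor DESeq2 called a member, with 0.00% and 0.220% of all genes called, and 1 member (Zfp951) had an unadjusted edgeR p under 0.05, as did 3.33% of all genes.

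**Figure D4:**
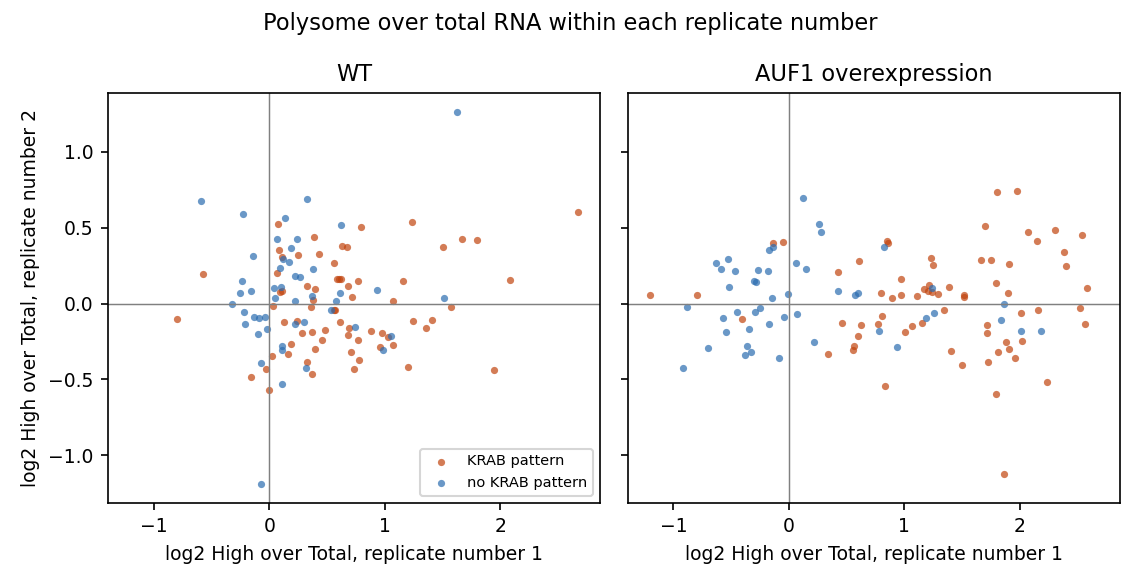
Log2 level in High over Total within replicate number 1 (horizontal) and within number 2 (vertical) for the tested members of the KRAB class (orange) and without the pattern (blue), in WT and in AUF1 cells. The KRAB points spread to the right, to medians of 0.58 in WT and 1.39 in AUF1 cells within number 1, but centre on -0.04 and 0.06 within number 2.

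Zfp948, in the longest chain on chromosome 17, showed the split plainly. It measured 3.81 and 8.96 CPM in WT Total and 12.3 and 12 in WT High, and 2.17 and 6.0 in AUF1 Total against 11 and 8.41 in AUF1 High. High lay above Total in both genotypes, with log2 differences of 0.93 ± 0.60 and 1.25 ± 0.60 (SE, n = 2 per group, edgeR adjusted p = 1 in both). Within numbers 1 and 2 these were 1.67 and 0.42 in WT and 2.31 and 0.48 in AUF1 cells, so that the Total libraries of number 1 were the low ones.

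Among non-overlapping members averaging at least 1 CPM, Zfp951 was the highest in AUF1 cells, with a positive value in both numbers there. It measured 0.666 and 0.926 CPM in AUF1 Total and 2.49 and 1.59 in AUF1 High, a log2 difference of 1.35 ± 0.45 (SE, edgeR adjusted p = 1, within numbers 1.80 and 0.74). In WT cells it was 1.78 and 2.21 CPM in Total and 2.76 and 2.03 in High, and the groups overlapped. Zfp820 differed by 1.21 ± 0.90 in AUF1 cells, from 0.420 and 1.93 CPM in Total to 2.77 and 2.65 in High. In WT cells Zfp960 (0.95 ± 0.85) and Zfp942 (0.81 ± 0.76) were, with Zfp948, the highest by the same measure.

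Members lower on polysomes than in total RNA were fewer. By that measure the lowest in WT cells were Zfp954 at -0.49 ± 0.35, from 27.7 and 17.1 CPM in Total to 15.9 and 16 in High, then Zfp963 at -0.32 ± 0.45 and Zfp788 at -0.31 ± 0.57. In AUF1 cells they were Zfp784 at -0.66 ± 0.37, Zfp775 at -0.49 ± 0.26 and Zfp651 at -0.45 ± 0.28 (log2, SE, edgeR adjusted p = 1 in all). These 3 are outside the KRAB class. The AUF1 High values of Zfp784, 1.52 and 2.36 CPM, lay below its other 6 libraries, which ran from 2.94 to 3.69 CPM. Zfp784 lies whole within Ccdc106 and overlaps Zfp865 (mean 42.9 CPM) by 2330 bases, both on the opposite strand. With the strand setting unknown, reads of these genes cannot be told apart where exons overlap.

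The interaction asks whether High minus Total differs between the genotypes. Over the members its median was 0.12, against -0.02 over all genes, with 0.37 within number 1 and -0.04 within number 2. The KRAB class had a median of 0.26 (0.78 and 0.02 within numbers), and the class without the pattern -0.14 (-0.28 and -0.06). Neither edgeR nor DESeq2 called a member or any other gene (0.00% in both). At an unadjusted edgeR p under 0.05 there was 1 member (Zfp750, lower), against 0.122% of all genes. The Zfp750 value rests on the absence of any count in WT Total, so its size is not measured. The genotypes' values within numbers did not overlap for 5 members with AUF1 higher (4.13%, against 8.98% of all genes) and 10 with AUF1 lower (8.26%, against 9.66%). For the other numbered Zfp genes the median interaction was 0.10, with shares of 7.26% and 10.1%. The members' median turned negative without AUF1 Total 1 (-0.15, all genes -0.02) and without WT Total 2 (-0.16, all genes -0.05). It was 0.68 without AUF1 Total 2 (all genes -0.10), 0.31 without WT Total 1 (all genes -0.06) and 0.04 without AUF1 High 1 (all genes -0.04).

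Among members averaging at least 1 CPM, the highest non-overlapping interactions were those of Zfp951 (1.09 ± 0.62), Zfp964 (0.98 ± 0.61) and Zfp963 (0.78 ± 0.64), all in the KRAB class. The lowest were Zfp784 (-0.61 ± 0.52), Zfp692 (-0.50 ± 0.44) and Zfp775 (-0.43 ± 0.37), which are outside it (log2, SE, edgeR adjusted p = 1 in all 6). For Zfp692 the value came from the Total libraries, with 5.83 and 8.11 CPM in WT Total and 10.3 and 9.77 in AUF1 Total, while WT High at 11.2 and 8.63 overlapped AUF1 High at 10.8 and 9.33.

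The numbers 1 and 2 differed most in 3 KRAB members. Zfp677, Zfp946 and Zfp820, all in the chain on chromosome 17, had the largest mean difference between the numbers among members averaging at least 1 CPM. Zfp946 measured 2.84 CPM in WT Total 1 and 8.43 in WT Total 2, 1.82 and 7.0 in AUF1 Total, 8.15 and 10.9 in WT High and 7.37 and 11.8 in AUF1 High. Number 2 was the higher in all 4 groups, and the AUF1 and WT values overlapped in both fractions. The 11 members of the Zfp677 chain had a median genotype difference of -0.36 in total RNA and -0.26 on polysomes, near that of the whole family. Members with ATTTA in the 3' region had a median of -0.46 in total RNA (86 members) and those without it -0.28 (29 members). Within number 1 these were -0.74 and -0.34, and within number 2 they were -0.32 and -0.27. On polysomes the medians were -0.27 and -0.26.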

How the data were processed

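The authors deposited unnormalized counts for each gene and library. Per the labels' protocols, 500 ng of RNA went into each NEBNext Ultra library. Tools in the submitters' processing notes are STAR, Bowtie, Trimmomatic, cutadapt and SAMtools, with the build mm10. Not given in the sources used here are versions, the counter, its strand setting and its annotation. Titles number replicates 1 and 2 and are followed here, while the sample descriptions name the second replicate Rep3. Lines for reads outside genes (6.04% to 7.23%) or in several genes (0.254% to 0.389%) were left out.

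Genes passing filterByExpr (13167) were fitted with edgeR 4.0.16 (R 4.3.3, quasi-likelihood, TMM scaling, 1 coefficient per group, all 8 libraries, 4 residual degrees of freedom), two-sided, with Benjamini-Hochberg adjustment over all genes and calls at 0.05. The SE was taken as log2 fold change divided by the root of F. Alternatives were DESeq2 1.42.0, other scalings and filters, a replicate term and left-out libraries. The interaction is AUF1 minus WT in High, less the same in Total. Positions and sequences come from GENCODE M21 on mm10. For each comparison, named members had the 3 highest and 3 lowest changes among those without overlap averaging at least 1 CPM. Others were all called, the 5 with most counts, the 3 differing most between numbers, and 11 chosen by name. Members and lists were chosen with earlier results of these data known.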

Additional observations from a re-analysis of the deposited data

Results flagged for a closer look

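Of the 121 tested members, 6 (4.96%, against 3.42% of all genes) had both WT values of High over Total on one side of 0 and both AUF1 values on the other. In Zfp964 and Zfp963, both of the KRAB class, WT lay below 0 and AUF1 above it. Zfp964 had log2 values of -0.0280 and -0.434 in WT replicates 1 and 2, and of 1.25 and 0.252 in AUF1 replicates 1 and 2. For Zfp963 they were -0.161 and -0.481 in WT and 1.11 and 0.0498 in AUF1 cells. The AUF1 Total 1 levels behind the larger values were 0.981 and 1.96 CPM. Zfp830 had the same order, with -0.220 and -0.0578 in WT and 0.577 and 0.0571 in AUF1 cells.

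In the other 3 members WT lay above 0 and AUF1 below it. Zfp622 had 0.0526 and 0.0365 in WT and -0.290 and -0.0552 in AUF1 cells. Zfp689 had 0.0639 and 0.202 in WT and -0.409 and -0.103 in AUF1 cells. For Zfp710 the values were 0.264 and 0.178 in WT and -0.246 and -0.0311 in AUF1 cells. The test of the difference itself gave interactions from -0.41 ± 0.42 for Zfp689 to 0.98 ± 0.61 for Zfp964 (log2, SE), with an edgeR adjusted p of 1 in all 6. Several of these values lie close to 0, and Zfp830 was named after its values were seen.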

How the results depend on the processing

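Counts of calls depended on the tool and scaling. In total RNA the 134 genes called became 885 with DESeq2, 1730 with a replicate block, and 0 with RLE scaling, plain library totals, only the 4 libraries compared, both Total replicate 1 libraries left out (chosen after seeing the data) or any 1 library left out. The 1 member called became 4 with DESeq2 and 4 with the block, and 0 under RLE scaling, plain totals, a minimum of 1 CPM in 4 libraries, the 4 libraries alone, both libraries left out, or any 1 left out. On polysomes the 46 genes called became 856 with DESeq2, 94 without a filter, 71 under the stricter filter, 1716 with the block, and 0 with RLE scaling, plain totals, the 4 libraries alone, both left out or any 1 left out. Members called there went from 0 to 5 with DESeq2 and 5 with the block, the same members by name with both tools in each fraction. High against Total had 30 (WT) and 29 (AUF1) genes called with DESeq2, 2 and 2 with the block, and 1 in AUF1 cells without a filter, and 0 members. The cause was not tested.

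The log2 difference between numbers 1 and 2 was compared between each pair of groups. Over all genes it was correlated in every pair (r from 0.62 to 0.81). Over the members r ran from 0.02 to 0.77, so at least 1 pair showed almost no correlation. There are only 2 numbers, with no statement of what a number shares. With the block and 1 library left out, 1 to 35 members and 326 to 3017 genes were called in total RNA (35 and 3017 without AUF1 Total 2), and 1 to 13 members and 613 to 2966 genes on polysomes (13 and 2966 without AUF1 Total 1). High against Total had 0 to 27 members and 0 to 1147 genes in AUF1 cells (27 and 1147 without AUF1 Total 2), and 0 members and 0 to 44 genes in WT. Of the co-repressors, the block called Suv39h1 in total RNA (edgeR adjusted p = 0.0405) and Cbx5 and Dnmt3b on polysomes (0.0436 and 0.0429). These were 3.23% and 6.45% of the 31 tested, against 13.1% and 13.0% of all genes.

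The median in total RNA ran from -0.97 to -0.17 when 1 library was left out, that on polysomes from -0.36 to -0.23, and that of the interaction from -0.16 to 0.68. The polysome median was -0.40 with plain totals, which shifted the median of all genes to -0.12 (to -0.20 in total RNA), -0.35 with the 4 libraries alone and -0.36 without both Total replicate 1 libraries (all genes -0.07 in both). Small values changed sign. In total RNA Zfp689 became -0.14 with plain totals and -0.28 without both libraries, and Zfp703 -0.34 without both. On polysomes Zfp622 became -0.10 with plain totals, -0.063 with the 4 libraries alone and -0.065 without both, and Zfp703 -0.086, -0.027 and -0.028. Zfp946 became -0.011 with DESeq2, -0.011 with RLE scaling, -0.12 with plain totals, -0.043 with the block, -0.083 with the 4 libraries alone and -0.084 without both, and Zfp932 became 0.031 with the block. With 1 library left out, total RNA values ran from -0.35 to 0.15 for Zfp609, -0.26 to 0.32 for Zfp689, -0.24 to 0.77 for Zfp703, -2.05 to 0.17 for Zfp932, -3.07 to 0.98 for Zfp677, -1.63 to 0.64 for Zfp946 and -2.55 to 0.46 for Zfp820. Polysome values ran from -0.22 to 0.18 for Zfp622, -0.26 to 0.25 for Zfp703, -0.15 to 0.15 for Zfp932 and -0.42 to 0.30 for Zfp946. In all, 929 of 985 recomputed values of named members kept their direction and side of the threshold, and 38 changed direction. This count is not a measure of stability. Only 1 member was called in the main fits, so few values could change side. Some fits left out a library outside the comparison, and many members were named because their groups did not overlap. A prior count of 0.5 changed no direction of a within-number value. Counting error limits members near 1 CPM, which had about 30 counts per library.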
